A study of Mus musculus with 6 samples.

Results

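The proteasome genes described here are the 42 mouse genes for the subunits, activators and dedicated assembly factors of the proteasome named by symbol in a list: 7 alpha and 7 constitutive beta subunits of the 20S core, 6 ATPases and 11 other subunits of the 19S cap, 5 immune subunits, 3 chaperones of cap assembly, the activators Psme3 and Psme4, and the core assembly factor Pomp. All 42 were found among the 24493 genes of the deposited table, and all 42 were among the 13720 genes tested. The samples were 6 bulk RNA libraries of pancreatic tumor cells labelled 6419c5, grown as subcutaneous tumors in C57BL/6 mice and sorted from them. In 2 libraries, labelled GAFCP, the tumors had been treated with gemcitabine (a nucleoside analog), abraxane (albumin-bound paclitaxel), an agonist of CD40 and blockade of PD-1 and CTLA-4, and 4 libraries came from tumors labelled control. The sources used here give no doses, times, age of the mice, treatment of the controls or marker used for sorting. They also do not say if each library was a separate animal, so the p-values cover the spread among these 6 libraries alone, and that spread may be technical.

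The proteasome is the protease that degrades proteins tagged with ubiquitin. Its 20S core is a barrel of alpha rings outside and beta rings inside, and Psmb5, Psmb6 and Psmb7 encode the beta subunits that cut peptide bonds. The 19S cap recognizes ubiquitin chains, removes them, and unfolds and feeds in the substrate with a ring of ATPases. Interferons induce Psmb8, Psmb9 and Psmb10, which take the places of Psmb5, Psmb6 and Psmb7 in newly built cores, and also Psme1 and Psme2, which form the PA28 activator. Cores built with these subunits, called immunoproteasomes, cut many proteins into peptides suited to MHC class I, and leukocytes carry them without added interferon.

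Of the immune subunits, Psmb9 and Psmb8 lie within the MHC on either side of the peptide transporter gene Tap1 (GRCm38, also called mm10). Psmb9 spans chr17:34181987-34187764, Tap1 chr17:34187553-34197225 and Psmb8 chr17:34197721-34201454, so that the Psmb9 and Tap1 annotations overlap at their starts. Psmb10 spans chr8:105935735-105938444. Psme1 (chr14:55578123-55581529) and Psme2 (chr14:55587441-55591113) are neighbors. Psmb5 lies on the same chromosome as these last genes (chr14:54614119-54618022), Psmb6 on chromosome 11 and Psmb7 on chromosome 2.

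Promoter windows of 300 bases, from 250 before to 50 after a start given by RefSeq (GRCm38.p6), were found for 36 of the 42 genes. A RefSeq start can differ from the end of the gene span given above. Starts used here for Psmb8, Psmb9, Psme1 and Psmb5 lie inside the printed spans. The genes with no entry were Psmb1, Psmb2, Psmb7, Psmc3, Psmd3 and Psmd7. Windows were searched on both strands for 4 motifs: GAAA and GAAA with any 2 bases between them, the core of the element bound by interferon regulatory factors (ISRE), TTCNNNGAA, the interferon-gamma activated sequence (GAS), TGACNNNGC, the core of the antioxidant response element, bound by NRF1 and NRF2, and CCAAT, the box bound by NF-Y. The stretches of 30 bases that hold the ISRE and GAS matches of any proteasome gene, and the antioxidant element matches of the catalytic subunits, are printed 5′ to 3′ on the gene's strand with the match in capitals, to show which genes carry these letters near their start.
Psme1 (ISRE, chr14:55578493-55578522, plus strand): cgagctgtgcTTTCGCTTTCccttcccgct
Psmb3 (ISRE, chr11:97703261-97703290, plus strand): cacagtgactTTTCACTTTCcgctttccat
Psmd4 (ISRE, chr3:95042675-95042704, minus strand): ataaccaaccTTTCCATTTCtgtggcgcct
Psmd9 (ISRE, chr5:123228021-123228050, plus strand): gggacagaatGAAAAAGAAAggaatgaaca
Psmb8 (GAS, chr17:34198088-34198117, plus strand): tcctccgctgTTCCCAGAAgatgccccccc
Psmd2 (GAS, chr16:20651646-20651675, plus strand): gcgcgtggccTTCTGGGAAaaggggcggtg
Psmb5 (antioxidant element, chr14:54618023-54618052, minus strand): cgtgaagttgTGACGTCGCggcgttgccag
Psmb6 (antioxidant element, chr11:70525338-70525367, plus strand): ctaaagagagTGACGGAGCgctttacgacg

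Among the immune subunits the ISRE core was found in 1 of 5 genes (Psme1, 10 to 19 bases after the RefSeq start). The GAS letters were also found in 1 of 5 (Psmb8, 97 to 89 bases before the RefSeq start). Among the other proteasome genes with a window, 3 of 31 held the ISRE core and 1 of 31 the GAS letters. Of all 32851 RefSeq windows, 3.44% held the ISRE core and 8.30% the GAS letters. The antioxidant element core was found in 0 of 5 immune subunits and in 6 of 31 other proteasome genes, against 12.4% of all windows. The CCAAT box was found in 1 of 5 immune subunits (Psmb9) and in 12 of 31 other proteasome genes, against 37.4% of all windows. The shares of all RefSeq windows count windows, while the counts over proteasome genes count genes, some with more than 1 window. Counted by window, the numbers with a match were the same for each motif. They were then out of 6 windows for the immune subunits and out of 33 for the others. A match describes letters in this window only.

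More proteasome genes were higher than lower with GAFCP, and the immune subunits had the largest changes among them. Of the 42 genes 24 were higher and 0 lower at an adjusted p under 0.05 in limma's test on log2(TPM + 1), where 19% of all genes tested were higher and 28.5% lower (47.5% in either direction). TPM is transcript abundance corrected for length and scaled to the same total in every library. At an unadjusted p under 0.05, limma gave 27 of the 42 as higher and 3 as lower, beside 21.3% and 32.8% of all genes tested. The 5 immune subunits were all higher, and so were 19 of the other 37 genes (51.4%). The median log2 change was 1.58 over the immune subunits and 0.12 over the other 37 genes, beside -0.07 over all genes tested.

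In 28 of the 42 genes both GAFCP libraries lay above every control, which held for 24.7% of all genes tested, and in 3 (Psmb1, Psmb5 and Psmd5) both lay below every control, which held for 36.9%. The summed level of the 42 genes was 6559, 6883, 6590 and 6674 TPM in control libraries 1 to 4 and 8542 and 8523 TPM in GAFCP libraries 1 and 2, or 0.668% and 0.853% of all TPM on average. Without the immune subunits the sum was 5877 TPM (SD 128.2, n = 4) in the controls and at 6449 TPM (SD 21.3, n = 2) under GAFCP. The count of genes that were higher fell to 15 without GAFCP library 1 and to 13 without GAFCP library 2, where 13.7% and 13.4% of all genes tested were higher. Of the 37 genes outside the immune group, 10 and 8 were then higher (27.0% and 21.6%).

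**Figure D1:**
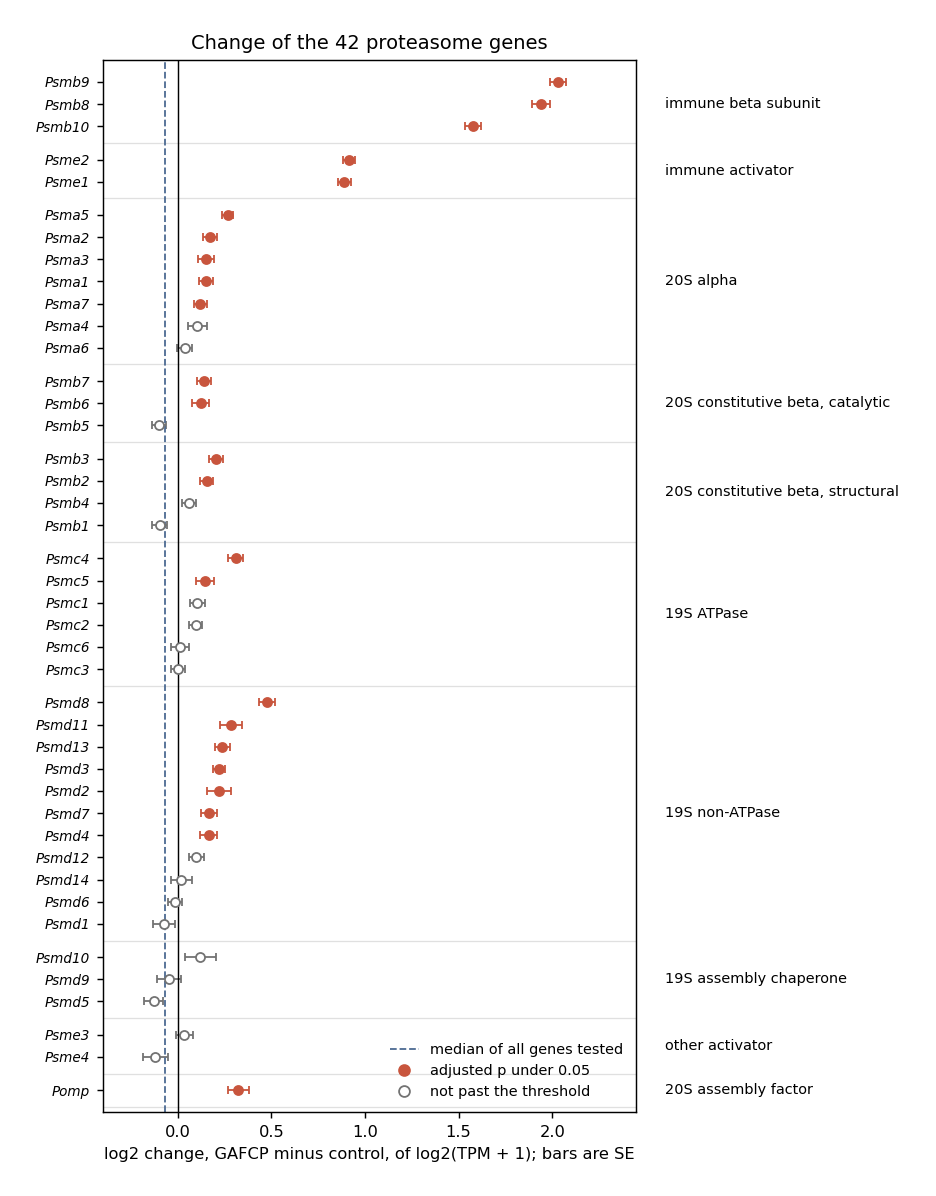
Log2 change (GAFCP minus control, of log2(TPM + 1)) of each of the 42 proteasome genes by class, with bars for the SE. Filled points passed an adjusted p under 0.05, and the dashed line marks the median of all genes tested (-0.07). The 5 immune subunits lie between 0.89 and 2.03, and every other gene lies between -0.13 and 0.48.

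Levels differed widely among the constitutive genes before any comparison of groups. In controls the mean level ranged from 20.5 TPM for Psmd9, a chaperone of cap assembly, to 430.1 TPM for Psmb4, a structural beta subunit. Although each alpha subunit occurs equally often in the core ring, the alpha genes ranged from 70.0 TPM (Psma3) to 304 TPM (Psma7) in controls, a 4.35-fold range that was 4.25-fold with GAFCP. The constitutive beta genes covered a 2.55-fold range in controls, and the 6 ATPase genes a 1.85-fold range, from 91.5 TPM (Psmc6) to 169 TPM (Psmc5). The median gene of the non-ATPase cap subunits stood at 98.9 TPM in controls, below the medians of the alpha (167 TPM) and constitutive beta (242 TPM) genes.

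**Figure D2:**
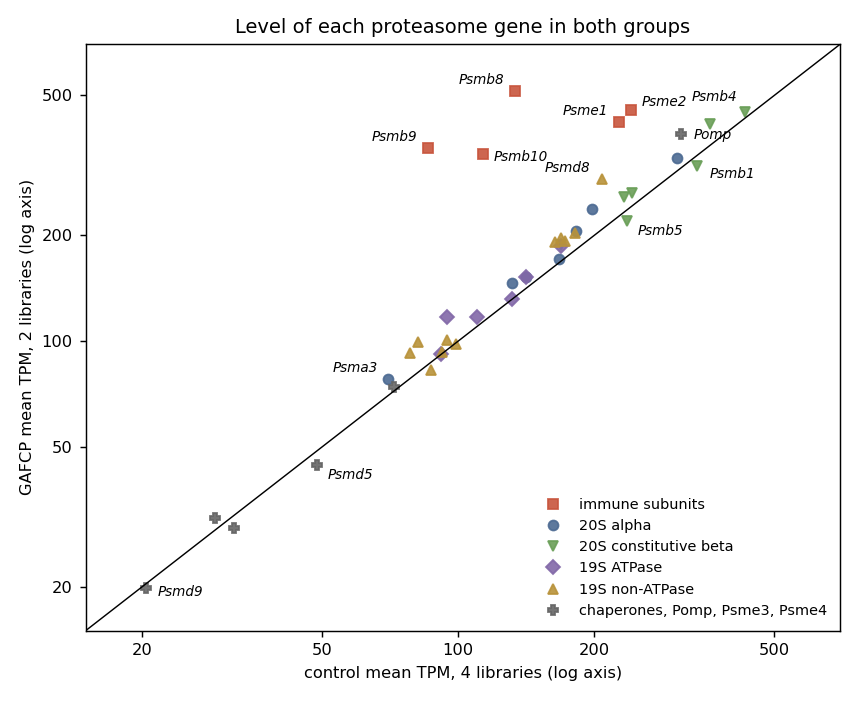
Mean TPM of each proteasome gene in 4 control libraries (x axis, log scale) and 2 GAFCP libraries (y axis, log scale), marked by class, with the line of equal levels. The immune subunits stand above the line, Psmb8 going from 133 to 514 TPM, while the other genes lie near it from 20.5 TPM (Psmd9) to 430.1 TPM (Psmb4) in controls.

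Psmb8, which encodes the immune subunit LMP7 with chymotrypsin-like activity, was at 125, 141, 132 and 135 TPM in control libraries 1 to 4 and at 509 and 519 TPM with GAFCP. The groups were far apart, and the log2 change was 1.94 ± 0.05 (SE; limma adjusted p = 7.1e-08). Psmb9, which encodes LMP2, was at 82.0, 88.8, 87.1 and 85.6 TPM in controls and at 361 and 348 TPM with GAFCP, which gave a log2 change of 2.03 with an SE of 0.04 (adjusted p by limma = 3.6e-08). It was the lowest of the 5 immune subunits in controls and had their largest change, ranking at 165 among the 13720 genes from the largest increase down. Psmb10, which encodes MECL-1, was at 114, 118, 108 and 115 TPM in controls and at 336 and 346 TPM with GAFCP, which gave a log2 change of 1.58 with an SE of 0.04 (adjusted p by limma = 1.1e-07).

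The activator genes Psme1 and Psme2 began higher and rose by less. Psme1, which encodes PA28 alpha, was at 221, 229, 222 and 233 TPM in controls and at 425 and 415 TPM with GAFCP, which gave a log2 change of 0.89 with an SE of 0.04 (adjusted p by limma = 7.7e-07). Psme2, which encodes PA28 beta, was at 235, 243, 239 and 246 TPM in controls and at 448 and 462 TPM with GAFCP, which gave a log2 change of 0.92 with an SE of 0.03 (adjusted p by limma = 5.0e-07). Psme2b, a copy of Psme2, was at 9.06 TPM (SD 1.87, n = 4) in the controls and at 12.6 TPM (SD 2.61, n = 2) under GAFCP and was not called (limma adjusted p = 0.0875). How reads were divided between Psme2 and Psme2b was not examined.

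**Figure D3:**
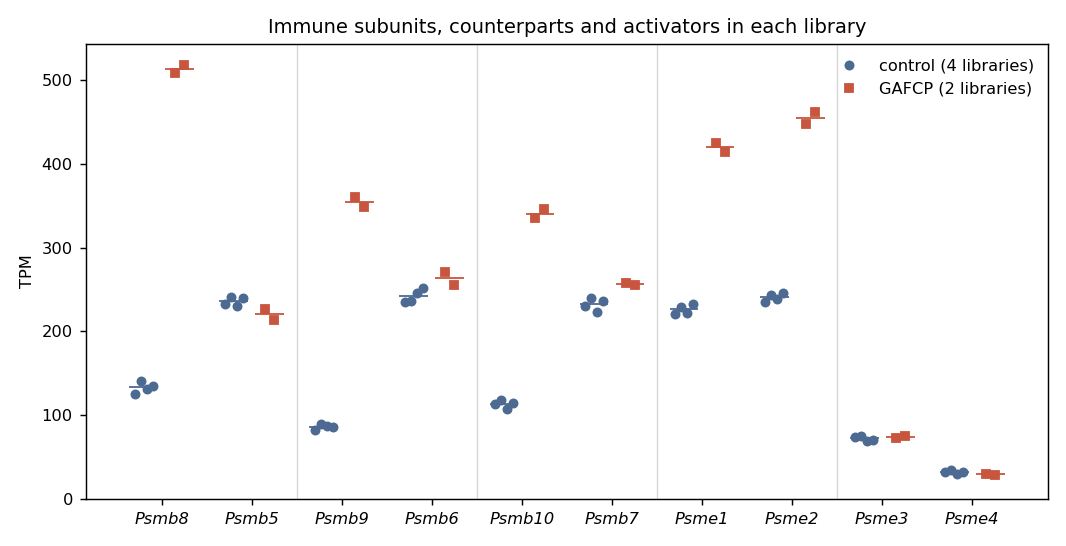
TPM of the immune subunits, the constitutive counterparts and the activators in each library (circles, 4 control libraries; squares, 2 GAFCP libraries; bars, group means). Psmb8, Psmb9 and Psmb10 stand below Psmb5, Psmb6 and Psmb7 in every control library and above them in both GAFCP libraries.

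Markers of other cells moved in the same libraries as the immune subunits. For each marker list, the background was that 19% of all genes tested were higher and 28.5% lower. All 12 tested macrophage and monocyte markers were higher, their summed level going from between 1003 and 1055 TPM in controls to between 3286 and 3296 TPM with GAFCP. All 8 pan-leukocyte markers were higher (102 to 121 TPM and 302 to 311 TPM summed), among them Ptprc, which encodes CD45, at 2.73 ± 0.389 TPM (SD, n = 4) and 9.79 ± 0.479 TPM (SD, n = 2). Of 9 T and NK cell markers 8 were tested and 8 were higher (5.47 to 7.83 TPM and 36.03 to 40.3 TPM summed). Of 5 neutrophil markers 4 were higher (25.6 to 29.7 TPM and 94.3 to 105 TPM), and of 6 fibroblast markers 4 were higher (136 to 151 TPM and 193 to 195 TPM). The 4 B cell markers, none of which was tested, summed to between 0.328 and 0.494 TPM in controls and between 0.899 and 1.81 TPM with GAFCP, without overlap. No marker listed was at 0 in all 6 libraries. The part of these cells in the rise of the immune subunits was not tested.

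The dendritic cell markers summed to between 4.02 and 4.77 TPM in controls and between 4.53 and 5.45 TPM with GAFCP, with 1 of 2 tested genes higher, and the endothelial markers to between 3.73 and 3.98 TPM and between 4.58 and 5.26 TPM, also with 1 of 2 higher. The epithelial markers, used to check the labelled pancreatic tumor cells, summed to between 5950.1 and 6275 TPM in controls and between 4578 and 4602 TPM with GAFCP. Of the 5 epithelial markers 0 were higher and 3 lower: the keratins Krt8 and Krt19 and the adhesion molecule Epcam had log2 changes of -0.59, -0.66 and -2.451. Epcam averaged 12.8 and 1.54 TPM, and Krt18, the partner of Krt8, averaged 1766 and 1691 TPM and did not pass (limma adjusted p = 0.156). In bulk RNA, fewer cells of a type and less RNA per cell cannot be told apart.

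The balance within each catalytic pair moved from the constitutive to the immune subunit. This was measured as a ratio within a library, which does not depend on how that library was scaled. Psmb8 made up 34.9%, 36.9%, 36.4% and 36.01% of the summed TPM of Psmb8 and Psmb5 in the controls and 69.2% and 70.8% with GAFCP. Psmb9 made up 25.9%, 27.3%, 26.2% and 25.3% of its sum with Psmb6 in controls and 57.0% and 57.7% with GAFCP. Psmb10 made up 33.1%, 33.0%, 32.5% and 32.6% of its sum with Psmb7 in controls and 56.6% and 57.5% with GAFCP. In all 3 pairs the constitutive transcript was the more abundant one in each control library and the immune transcript the more abundant one in both GAFCP libraries.

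The log2 ratio of Psmb8 to Psmb5 went from -0.83 ± 0.05 (SD, n = 4) to 1.22 ± 0.08 (SD, n = 2), a difference of 2.05. That of Psmb9 to Psmb6 went from -1.496 ± 0.06 to 0.43 ± 0.03 (SD), a difference of 1.92, and that of Psmb10 to Psmb7 from -1.03 ± 0.02 to 0.41 ± 0.04 (SD), a difference of 1.44. The log2 ratio of Psme1 and Psme2 to Psme3, which encodes the nuclear activator PA28 gamma, went from 1.69 ± 0.07 to 2.56 ± 0.02 (SD), a difference of 0.87. A two-sided exact permutation test over the 15 arrangements of the libraries gave p = 0.0667 for each of the 4 ratios (adjusted over the 4, p = 0.0667), the smallest value this design allows, so that none could pass 0.05. The groups did not overlap in any of the 4 ratios.

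**Figure D4:**
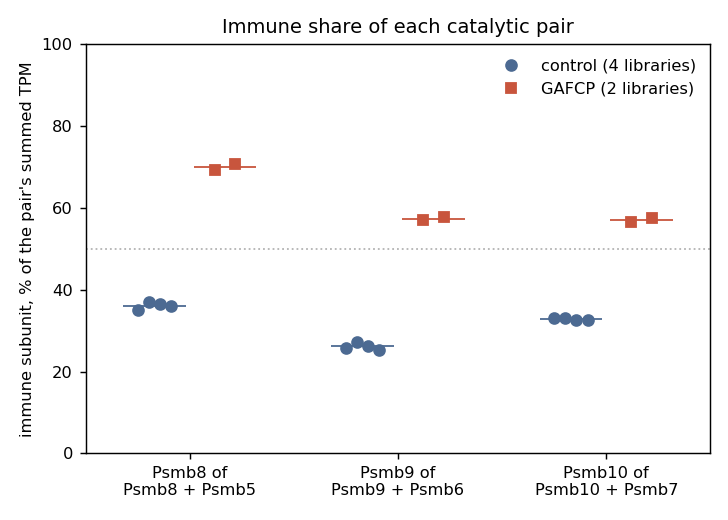
Share of the immune subunit in the summed TPM of each catalytic pair (y axis, percent), by library (circles, 4 control libraries; squares, 2 GAFCP libraries; bars, group means; dotted line, equal levels). The controls sit between 25.3% and 36.9% and the GAFCP libraries between 56.6% and 70.8%.

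The constitutive catalytic subunits differed little between the groups. Psmb5, which carries the chymotrypsin-like activity of the ordinary core, was at 233, 242, 229.8 and 240.4 TPM in controls and at 226 and 214 TPM with GAFCP. Both GAFCP libraries lay below every control, but the log2 change of -0.10 ± 0.04 (SE) did not pass (limma adjusted p = 0.062). Psmb6, the caspase-like subunit, was at 235, 236, 245 and 252 TPM in controls and at 271 and 255 TPM with GAFCP, which gave a log2 change of 0.12 with an SE of 0.04 (adjusted p by limma = 0.0493). This call was lost under 12 of 18 alternatives, among them without GAFCP library 1 and without GAFCP library 2 (adjusted p up to 0.629 over the 18). Psmb7, the trypsin-like subunit, was at 230.4, 239.8, 223 and 237 TPM in controls and at 257 and 256 TPM with GAFCP, which gave a log2 change of 0.14 with an SE of 0.04 (adjusted p by limma = 0.017, lost under 5 of 18 alternatives, among them without GAFCP library 1 and without GAFCP library 2, up to 0.105).

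The structural beta subunits shape the ring without cutting. Psmb3 was at 343, 366, 360.2 and 369.9 TPM in controls and at 413 and 414 TPM with GAFCP, which gave a log2 change of 0.20 with an SE of 0.04 (adjusted p by limma = 0.0033), and Psmb2 rose by 0.15 on the log2 scale (limma adjusted p = 0.0107, lost under 3 of 18 alternatives, among them without GAFCP library 1 and without GAFCP library 2, up to 0.0858). Psmb1 was at 328, 346, 333 and 343 TPM in controls and at 306 and 325 TPM with GAFCP, below every control, with a log2 change of -0.10 ± 0.04 (SE) that did not pass (limma adjusted p = 0.0692). Psmb4, the most abundant of all 42 genes in controls, went from a mean of 430.1 TPM (SD 12.7, n = 4) to 448 TPM (SD 1.94, n = 2) and did not pass (limma adjusted p = 0.204). Of the 7 constitutive beta genes 4 were higher and 0 lower, against 19% and 28.5% of all genes tested, and the median log2 change was 0.12. At an unadjusted p under 0.05, limma gave 4 of the 7 as higher and 2 (Psmb1 and Psmb5) as lower, beside 21.3% and 32.8% of all genes tested. Psmb5 and Psmb1 were lower after quantile normalization (limma adjusted p as low as 0.0012 for Psmb5 and 0.0024 for Psmb1), and their changes were below 0 under each alternative.

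The 7 alpha subunits form the gate of the core. Of these, 5 were higher and 0 lower by limma, where 19% of all genes tested were higher and 28.5% lower. The counts were the same at an unadjusted p under 0.05, beside 21.3% and 32.8% of all genes tested. The median log2 change of the alpha subunits was 0.15. Psma5 changed the most among them. It was at 199, 198, 197 and 196 TPM in controls and at 236 and 239.6 TPM with GAFCP, which gave a log2 change of 0.27 with an SE of 0.03 (adjusted p by limma = 2.3e-04), and controls differed by little. Psma6, with the smallest log2 change of the class (0.04), was at 174, 169, 167 and 159.9 TPM in controls and at 174 and 169 TPM with GAFCP. The groups overlapped, and it did not pass (limma adjusted p = 0.498). Psma2, Psma3, Psma1 and Psma7 rose by 0.17, 0.15, 0.15 and 0.12 on the log2 scale, and Psma4 had a log2 change of 0.10 (limma adjusted p = 0.122). The calls of Psma7, Psma3, Psma1 and Psma2 were lost under 8, 5, 3 and 1 of 18 alternatives, without GAFCP library 2 in each case (adjusted p up to 0.215, 0.165, 0.103 and 0.0554 over the 18).

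The 6 ATPases of the cap, which unfold the substrate, had unequal changes. Psmc4 was at 95.2, 96.4, 90.5 and 94.9 TPM in controls and at 119 and 115 TPM with GAFCP, which gave a log2 change of 0.31 with an SE of 0.04 (adjusted p by limma = 5.7e-04). Psmc5 rose by 0.14 (limma adjusted p = 0.0349), a call lost under 8 of 18 alternatives, including without control library 1, 3 or 4 or without GAFCP library 1 or 2 (up to 0.163). Psmc3 was at 132, 136, 128 and 129 TPM in controls and at 130.1 and 133 TPM with GAFCP, within the control range, and its log2 change of 0.00 (limma adjusted p = 0.982) was the smallest of all 42 genes. The log2 changes of Psmc1, Psmc2 and Psmc6 were 0.10, 0.09 and 0.01, none past the threshold. Of the 6 genes 2 were higher and 0 lower (limma), where 19% of all genes tested were higher and 28.5% lower. At an unadjusted p under 0.05, 4 were higher and 0 lower, beside 21.3% and 32.8% of all genes tested.

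Of the 11 non-ATPase cap subunits 7 were higher and 0 lower by limma, where 19% of all genes tested were higher and 28.5% lower. At an unadjusted p under 0.05, 8 were higher and 0 lower, beside 21.3% and 32.8% of all genes tested, and the median log2 change was 0.17. The largest change outside the immune group was that of Psmd8, which encodes the lid subunit RPN12. Psmd8 was at 202, 217, 211 and 199.6 TPM in controls and at 290.5 and 287 TPM with GAFCP. The groups were well apart, with a log2 change of 0.48 with an SE of 0.04 (adjusted p by limma = 5.9e-05) and a rank of 1558 among the 13720 genes. Psmd11, the lid subunit RPN6, was at 82.9, 87.5, 75.8 and 80.2 TPM in controls and at 98.9 and 99.9 TPM with GAFCP, which gave a log2 change of 0.28 with an SE of 0.06 (adjusted p by limma = 0.0048). Psmd13, Psmd3, Psmd2, Psmd7 and Psmd4 rose by 0.24, 0.22, 0.22, 0.17 and 0.16 on the log2 scale. Psmd4 encodes a receptor for ubiquitin chains and Psmd2 a scaffold of the cap base. The calls of Psmd2, Psmd7 and Psmd4 were lost without GAFCP library 1 and without GAFCP library 2 (adjusted p up to 0.15, 0.115 and 0.135 over the 18 alternatives).

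The remaining cap subunits did not pass. Psmd14, the deubiquitinase of the lid, was at 94.6, 98.3, 87.4 and 88.2 TPM in controls and at 92.03 and 94.3 TPM with GAFCP, inside the control range. Psmd1, a scaffold of the cap base, was at 86.7, 93.6, 80.8 and 87.2 TPM in controls and at 81.4 and 83.6 TPM with GAFCP. These overlapped, with the lowest log2 change of the class (-0.07 ± 0.06, SE; limma adjusted p = 0.326). Psmd6 and Psmd12 had log2 changes of -0.02 and 0.10 (limma adjusted p = 0.754 and 0.0776). The changes of Psmd14 and Psmd6, like those of Psma6, Psmc3, Psmc6, Psmd9 and Psme3, took either sign across the alternatives.

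Assembly factors and alternative activators differed from each other. Pomp, the chaperone that guides the joining of core precursors and is consumed by each new core, was at 303, 338, 311 and 291 TPM in controls and at 394 and 383 TPM with GAFCP, which gave a log2 change of 0.32 with an SE of 0.06 (adjusted p by limma = 0.0025). Both GAFCP libraries lay above every control. Of the 3 chaperones of cap assembly, limma called 0 in either direction, where 19% of all genes tested were higher and 28.5% lower. At an unadjusted p under 0.05, 0 were higher and 1 lower, beside 21.3% and 32.8% of all genes tested. Psmd5 was at 50.5, 50.6, 46.1 and 47.7 TPM in controls and at 44.4 and 44.4 TPM with GAFCP, below every control, with a log2 change of -0.13 with an SE of 0.05 (adjusted p by limma = 0.0736). Psmd5 was lower without control library 3 and with the 50 most abundant genes left out of the scaling. It was also lower with control libraries 1 and 2 alone and with the replicate number as a block, settings that give the same log2 change. Its limma adjusted p was as low as 0.0141 over all alternatives. Psmd10, which encodes the oncoprotein gankyrin, was at 27.6, 31.2, 31.1 and 25.9 TPM in controls and at 30.3 and 32.7 TPM with GAFCP, with overlapping groups (log2 change 0.12, limma adjusted p = 0.28). Psmd9 had a log2 change of -0.05 (limma adjusted p = 0.581).

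Psme3 was at 74.1, 74.9, 69.6 and 69.9 TPM in controls and at 73.0 and 74.8 TPM with GAFCP, within the control range (log2 change 0.03 ± 0.05, SE; limma adjusted p = 0.571), and it passed as higher with median-of-ratios scaling (adjusted p = 0.0471). Psme4, which encodes the activator PA200, was at 31.5, 34.4, 29.5 and 32.5 TPM in controls and at 29.97 and 28.7 TPM with GAFCP, overlapping the controls (log2 change -0.12 ± 0.07, SE; limma adjusted p = 0.177). Psme4 was lower without control library 3 and with the 50 most abundant genes left out of the scaling (adjusted p as low as 0.0408).

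Genes that work with the proteasome but are no part of the 42 were also examined. The interferon-side regulators examined were all higher (5 of 5, against 19% of all genes tested). Irf1, a transcription factor of the immune subunit genes, went from a mean of 76.1 TPM (SD 3.71, n = 4) to 295 TPM (SD 0.00332, n = 2). Nlrc5, the transactivator of MHC class I genes, went from 11.2 ± 0.979 to 50.5 ± 0.151 TPM (SD), which gave a log2 change of 2.08 with an SE of 0.08 (adjusted p by limma = 7.0e-07). Of 6 genes that control the constitutive proteasome genes, 0 were higher and 3 lower (28.5% of all genes tested were lower). Nfe2l1, which encodes NRF1, the factor that drives proteasome genes when proteasome activity is short, was at 131 ± 5.84 TPM in controls and 128 ± 1.74 TPM with GAFCP (SD) and was not called (limma adjusted p = 0.599). Nfe2l2, Nfe2l3 and Ngly1, the enzyme that deglycosylates NRF1, fell by 0.30, 0.48 and 0.44 on the log2 scale.

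The peptide steps after the proteasome were all higher (7 of 7, where 19% of all genes tested were higher). Tap1, next to Psmb9, went from a mean of 46.7 TPM (SD 3.04, n = 4) to 233 TPM (SD 8.06, n = 2), which gave a log2 change of 2.29 with an SE of 0.06 (adjusted p by limma = 9.9e-08), and Tap2, its partner in the transporter, rose by 1.67. Tapbp, which links the transporter to class I molecules, and the trimming peptidase Erap1 rose by 1.16 and 1.11, and the class I genes B2m, H2-K1 and H2-D1 by 1.43, 1.44 and 1.38.

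Other partners of the proteasome gave counts in both directions, where 19% of all genes tested were higher and 28.5% lower. Of the 4 other chaperones of core assembly, Psmg4 rose from 72.0 ± 6.81 to 103 ± 0.291 TPM (SD; log2 change 0.52, limma adjusted p = 0.0012), Psmg2 fell by 0.26 on the log2 scale (limma adjusted p = 0.0089), and Psmg1 and Psmg3 did not pass. Of 9 tested cap-associated genes 3 were higher and 1 lower. The ubiquitin receptor Adrm1, the deubiquitinase Usp14 and Zfand5 rose by 0.13, 0.22 and 0.19, and the ubiquitin ligase Ube3c fell by 0.17. Of 4 ubiquitin genes examined Ubb rose by 0.12, and Rps27a, a fusion gene that also encodes a ribosomal protein, fell by 0.18 on the log2 scale. Of 5 shuttle factors, which carry tagged proteins to the cap, Rad23b rose by 0.24 and Ubqln2 fell by 0.21. The subunit genes of thymus and testis, Psmb11 and Psma8, did not reach 1 TPM in any library, so no test was made.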

How the data were processed

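Per the labels' protocols, RNA of the sorted tumor cells was sequenced by a company. The authors deposited 1 table of TPM values per gene, for which the submitters' processing notes name Salmon and mm10. The version of Salmon, the annotation and the rule for summing transcripts to genes were not given in the sources used here. Depth is unknown from TPM, so there are no counting intervals, and the precision of a value is the spread among libraries. The total is the same in each library, so abundant genes can lower all others. Titles gave the groups and replicate numbers.

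The 13720 genes that reached 1 TPM in 2 or more libraries were tested on log2(TPM + 1) by limma 3.58.1 under R 4.3.3 (empirical Bayes with a mean-variance trend, 4 residual degrees of freedom), with Benjamini-Hochberg adjustment over all genes tested. A pseudocount of 1 understates changes of low genes. Across genes (not independent replicates), Pearson's r of log2 values was 0.982 to 0.989 among controls, 0.989 between the GAFCP libraries and 0.945 to 0.954 between groups. Log2 ratios of TPM within a library were compared by an exact permutation test, its p being the share of arrangements with an absolute difference at least as large.

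The test was tried on simulated data first. The members, lists and comparisons were chosen with earlier results of these data known. Each immune subunit, its counterpart and each activator is given in every library, and in other classes the genes with the highest and lowest change and any called against most of its class, with the rest by range and count. Psmd11 and Psmd14 were given in every library after their values were seen. Some genes of the lists are not reported here. Gene spans were read by symbol from GENCODE M21 (GRCm38). As alternatives, the pseudocount was 0.1 or 5, the filter was changed (none, or a mean of at least 5 TPM), as were the scaling (median of ratios, quantile normalization, rescaling without the 50 most abundant genes), and the variance model (no trend, robust), the replicate number was added as a block, and each library was left out in turn. Using control libraries 1 and 2 alone, or 3 and 4 alone, was added after the data were seen. Tests for counts do not suit TPM and were not run.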

Additional observations from a re-analysis of the deposited data

Results flagged for a closer look

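Among 46 values checked in the 4 control libraries (42 genes and 4 ratios), 1 had a library far from the others. Psma2 was at 174.5 TPM in control library 1 and between 183 and 184.7 TPM in the other controls, a gap of 0.872 of the whole range, past the 95% limit of Dixon's test for 4 samples. Chance marks about 1 in 20 such groups. Psma2 stayed higher with GAFCP without that library.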

How the results depend on the processing

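The 5 immune subunits were higher under each of 18 alternatives, with adjusted p of at most 0.00195, and the 24 genes that were higher kept a change above 0 under each of them. In all 24, both GAFCP libraries lay above every control. Leaving out libraries or changing the filter, pseudocount or variance model therefore could not turn a change negative, and only the scalings could. Of these 24, 13 passed under every alternative: the immune subunits, Psma5, Psmb3, Psmc4, Psmd3, Psmd8, Psmd11, Psmd13 and Pomp. Leaving out each library in turn gave 13 to 25 proteasome genes higher and 0 to 3 lower, 8 to 20 higher outside the immune group, and 1845 to 2577 higher and 2486 to 4638 lower in the whole table. Where 1 GAFCP library was left, its variance was taken from the controls. The lowest of these counts of higher genes came without GAFCP library 2, with fewer samples. In place of 0, the proteasome genes that were lower numbered 2 with quantile normalization, 4 with rescaling without the 50 most abundant genes, 1 with control libraries 1 and 2 alone and 1 with the replicate block. The cause was not tested. The block gave 18 proteasome genes higher (42.9%), beside 15.5% of all genes tested. Control libraries 3 and 4 have no GAFCP library of the same number, so they add nothing to the change under the block. Its log2 changes equal those with control libraries 1 and 2 alone (median over all genes -0.097 in both). These alternatives differ in the variance, not in the change. Numbers 1 and 2 occur in both groups, but the deviations of same-numbered libraries correlated at -0.00727 and -0.0195 and no label says that a number marks a shared animal or batch.

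With median-of-ratios scaling the split over all genes was 3449 higher and 3425 lower, against 2606 and 3909, and 29 of the 42 genes were higher. The class medians of log2 change were then 0.21 for alpha, 0.19 for constitutive beta, 0.16 for ATPase and 0.23 for non-ATPase subunits, and with quantile normalization 0.10, 0.028, 0.063 and 0.092. The non-ATPase median was 0.14 with rescaling without the 50 most abundant genes and 0.19 with control libraries 3 and 4 alone. Leaving out each library gave medians of 0.13 to 0.16 (alpha), 0.077 to 0.15 (constitutive beta), 0.08 to 0.11 (ATPase), 0.15 to 0.19 (non-ATPase) and 1.55 to 1.60 (immune). The ratios were retried with a pseudocount of 1, without each library, with the replicate block and with either pair of controls alone. For the catalytic pairs, the alpha subunits also took the place of the constitutive counterpart. The scalings and variance models were not tried on the ratios. The differences in log2 ratio stayed within 1.80 to 2.10 (Psmb8), 1.89 to 1.95 (Psmb9), 1.42 to 1.47 (Psmb10) and 0.81 to 0.93 (Psme1 and Psme2). The 1.80 came with the alpha subunits in place of Psmb5, so it does not describe the ratio of Psmb8 to Psmb5. With the replicate block the differences were 2.06, 1.89, 1.43 and 0.93. Exact p, not computed for the block, ranged from 0.0667 to 0.333, the smallest each set of libraries allows.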
